A study of Mus musculus with 5 samples.

Results

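The genes described here are the chemokines and chemokine receptors of mouse liver, measured on microarrays 6 hr after treatment with a thiazolidinedione. They were chosen by name: every probe that was not a control and whose gene name on the array was Ccl, Cxcl, Cx3cl, Xcl, Ccr, Cxcr, Cx3cr, Xcr or Ackr, followed by a number and at most a letter. This gave 83 of 56605 probes and 58 of 36870 gene names, 36 of them ligands and 22 receptors. Of the receptors, 18 are typical and 4 are atypical.

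The livers came from female BALB/c mice, 6 weeks old, in 5 groups. The mice were injected intraperitoneally with TGZ at 300 mg/kg, with BSO at 700 mg/kg and TGZ at 300 mg/kg (BSO plus TGZ), with RGZ at 300 mg/kg, with BSO at 700 mg/kg and RGZ at 300 mg/kg (BSO plus RGZ), or with vehicle. TGZ is troglitazone by the title of the study, which concerns a mouse model of liver injury by this drug. RGZ and BSO are read here, from general knowledge, as rosiglitazone and buthionine sulfoximine, an inhibitor of glutathione synthesis. TGZ and RGZ are both thiazolidinediones and agonists of the nuclear receptor PPAR-gamma, and TGZ differs from RGZ in carrying a vitamin E-like chromane group. No group received BSO alone. The RNA of 6 livers was pooled in each group and each pool was read on 1 array, so the spread between animals is unknown, no test between groups was possible, and the differences below are differences between single pools.

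Chemokines are small secreted proteins that bind to G protein-coupled receptors on leukocytes and draw these cells along a gradient. CC and CXC chemokines are named after the spacing of their first cysteines. Inflammatory chemokines are induced in injured tissue and draw neutrophils and monocytes, whereas homeostatic chemokines place lymphocytes and other resident cells. Atypical receptors bind chemokines without G protein signalling and remove them or shape their gradients. In liver, hepatocytes, Kupffer cells, sinusoidal endothelium and stellate cells all make chemokines.

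Each value is the background-subtracted brightness of a probe, divided by the 75th percentile of its array and multiplied by 179.1, the mean of these percentiles, which is called the scaled signal and has arbitrary units. Before scaling, the 75th percentile was lowest on the TGZ array, at 141.5, and 169.8 to 208 on the other arrays. A gene was represented by its brightest probe, and a difference was called at 2-fold. The range in brackets after a fold is its 95% interval from the signal error that the scanner software gives for the spots, and covers neither animals nor pools. Where a probe was well above background, by the software's call, on only 1 of the arrays compared, the fold is a lower bound and is written as at least. All 9 hepatocyte marker genes on the array were well above background on all 5 arrays.

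Of the 58 genes, 25 passed that background call on every array, 17 on some and 16 on none. The detected genes were 26 ligands and 16 receptors. By group, 28 genes were well above background with TGZ, 37 with BSO plus TGZ, 34 with RGZ, 35 with BSO plus RGZ and 32 with vehicle. By probe, the numbers were 35, 46, 45, 45 and 41 of the 83 in the same order of groups, and 29 probes were above background on no array. Over all probes of the arrays, the share well above background was 51.9% with TGZ, the lowest, and 53.7% to 55.1% in the other groups. The genes measured on no array were Ccl8, Ccl12, Ccl20, Ccl22, Ccl26, Ccl28, Cxcl3, Cxcl15, Cxcl17, Xcl1, Ccr1, Ccr4, Ccr9, Ccr10, Cxcr5 and Xcr1. Their probes gave only an upper limit on expression here, which does not show that the genes were silent.

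The ligands that draw neutrophils were far above vehicle with TGZ. Cxcl1, an early hepatic neutrophil attractant that acts through Cxcr2, had a scaled signal of 30330 with TGZ, 24270 with BSO plus TGZ, 1428 with RGZ, 794 with BSO plus RGZ and 685 with vehicle. Both TGZ pools therefore stood apart from the other 3, and Cxcl1 was 44.3-fold higher with TGZ than with vehicle (33.5 to 58.4) and 35.4-fold higher with BSO plus TGZ (26.8 to 46.7). RGZ was 2.08-fold above vehicle (1.58 to 2.75), and BSO plus RGZ 1.16-fold (0.878 to 1.53). Cxcl2, its close relative with the same receptor, gave 47.4 with TGZ and 42.0 with BSO plus TGZ. It was not well above background with RGZ, BSO plus RGZ or vehicle. Cxcl2 was thus at least 4.74-fold higher than vehicle with TGZ and at least 4.20-fold with BSO plus TGZ. Cxcl5 was above background only with BSO plus TGZ, at 14.6, and the bound against vehicle was 1.46-fold. Cxcl3 and Cxcl15 were not measured on any array.

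These ligand genes lie together on chromosome 5. In mm9, the build of the array files, the Cxcl1 probe is at chr5:91322080-91322139 on the plus strand and the Cxcl2 probe at chr5:91334534-91334593, 12.5 kb further on. The probes of Cxcl5, Cxcl3, Cxcl1 and Cxcl2 span 144 kb in this order. Whether a probe lies in coding or untranslated sequence was not examined, since no annotation of that build was used here. The upstream sequences of Cxcl1 and Cxcl2 are shown because these were the ligands of this group that differed together with TGZ. They are the 250 bases before each gene's start on the plus strand, from RefSeq on GRCm38.p6, another build than that of the probes. Capitals mark GGGAATTTCC, a match to the NF-kappaB consensus that both genes share, and ATAAAA, which resembles the core promoter element near many starts.
Cxcl1 (chr5:90890995-90891244): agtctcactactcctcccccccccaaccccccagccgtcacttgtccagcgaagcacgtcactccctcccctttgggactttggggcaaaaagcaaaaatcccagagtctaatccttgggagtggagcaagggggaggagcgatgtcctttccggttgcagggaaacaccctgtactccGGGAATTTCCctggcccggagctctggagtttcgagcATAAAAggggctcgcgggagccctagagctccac
Cxcl2 (chr5:90903649-90903898): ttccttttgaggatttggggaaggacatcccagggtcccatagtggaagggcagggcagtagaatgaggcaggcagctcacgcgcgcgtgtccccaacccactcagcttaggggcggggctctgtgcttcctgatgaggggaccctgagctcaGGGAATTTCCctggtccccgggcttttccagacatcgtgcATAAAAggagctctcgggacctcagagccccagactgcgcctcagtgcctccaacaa
GGGAATTTCC begins 71 bases before the start of Cxcl1 and 97 bases before that of Cxcl2, and ATAAAA begins 34 and 57 bases before the start of the same genes. Cxcl3, whose probe was too dim to measure, carries GGGAATTTCC 73 bases before its start and ATAAAA 29 bases before.

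The motifs were searched on both strands in windows of 250 bases before to 50 bases after each start, and 43 of the 58 genes had such a window. These 43 genes had 47 windows, and a gene was counted if any of its windows held the motif. The shares over all genes are per window, so the counts and the shares differ in unit. The NF-kappaB consensus, of which GGGAATTTCC is an example and with which it therefore overlaps, was present in 4.51% of the 32851 windows of all genes. Among the chemokine and receptor genes it was found in 10 of 43, namely Cxcl1, Cxcl2, Cxcl3, Cxcl10, Ccl9, Ccl20, Ccl27a, Ccr3, Ccr6 and Ackr2. GGGAATTTCC was picked because the Cxcl1 and Cxcl2 windows share it, so its presence in them was given and is not a finding. It was present in 29 windows, or 0.0883%, and among the other genes of the family in those of Cxcl3 and Ccr3. The AP-1 motif TGANTCA was found in 7 of 43 genes and in 7.81% of all windows, and ATAAAA in 17 of 43 and in 18.5%. Of the genes with the NF-kappaB consensus, Cxcl1, Cxcl2 and Ackr2 were above vehicle with TGZ past 2-fold and Ccr3 was below it. Ccl9, Cxcl10 and Ccl27a stayed within 2-fold, and Cxcl3, Ccl20 and Ccr6 were not well above background with TGZ or vehicle. A link between the motif and these values was not tested. A match of letters is not evidence of binding.

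The receptor of these ligands followed the same groups. Cxcr2, which neutrophils carry, had a scaled signal of 148 with TGZ, 120 with BSO plus TGZ, 15.5 with RGZ and 22.5 with BSO plus RGZ, and was not well above background with vehicle. It was at least 14.8-fold higher than vehicle with TGZ, at least 12-fold with BSO plus TGZ, at least 2.25-fold with BSO plus RGZ and at least 1.55-fold with RGZ. Cxcr1, the related receptor, was above background only with BSO plus RGZ, at 13.1. Cxcr2 is itself on the list of 13 neutrophil markers, and several others moved with it. With Cxcr2 counted, 8 of 13 with a value were at least 2-fold higher than vehicle with TGZ and 9 of 13 with BSO plus TGZ. With RGZ 4 of 10 were higher and with BSO plus RGZ 4 of 12, and none was lower in any group. Cxcr2 is among the higher genes in each of these counts except that with RGZ. Over all genes with a value, 10.1%, 8.31%, 1.65% and 3.05% were higher in the same order of groups. S100a8, which encodes a calcium-binding protein abundant in neutrophils, had 4470 with TGZ, 4867 with BSO plus TGZ, 791 with RGZ, 1072 with BSO plus RGZ and 241 with vehicle. Ly6g, another neutrophil marker, was not higher: its log2 difference from vehicle was -0.70 with TGZ. The summed scaled signal of the 13 markers was 46380, 46520, 21810, 23010 and 20240 for TGZ, BSO plus TGZ, RGZ, BSO plus RGZ and vehicle, of which Csf3r made up 44.4% to 88.9%. Their part in the Cxcr2 values was not tested, and in RNA of whole liver more cells of a type and more RNA per cell cannot be told apart.

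**Figure D1:**
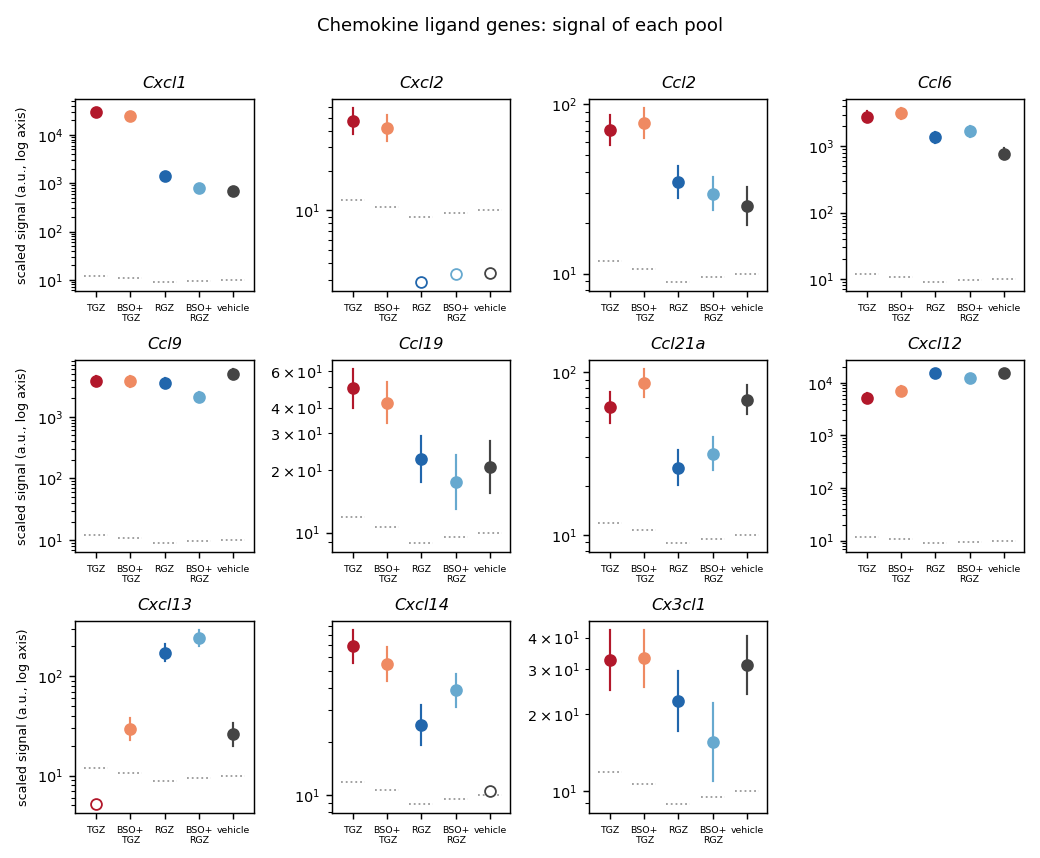
Scaled signal in arbitrary units on a log axis, 1 point per pool, for the ligand genes at least 2-fold from vehicle in any treated group. Bars are 95% intervals from the error of the spots, open points are not well above background, and dotted lines mark the lowest signal called well above background on that array. Cxcl1 is at 30330 with TGZ and 685 with vehicle, and Cxcl13 is highest in the RGZ pools, at 174 and 244.

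Among the ligands that draw monocytes, Ccl2 differed and the others were barely detected. Ccl2, the main attractant of monocytes carrying Ccr2, had 70.4 with TGZ, 78.1 with BSO plus TGZ, 34.7 with RGZ, 29.8 with BSO plus RGZ and 25.0 with vehicle. It was 2.81-fold higher with TGZ than with vehicle (2.03 to 3.90) and 3.12-fold with BSO plus TGZ (2.25 to 4.32), while RGZ was 1.39-fold higher (0.991 to 1.94). Ccl7, a neighbour of Ccl2 on chromosome 11 with the same receptor, was above background only with BSO plus TGZ, at 13.7. Ccr2 gave 27.0 with TGZ, 26.6 with BSO plus TGZ, 11.9 with BSO plus RGZ and 11.9 with vehicle, and was not well above background with RGZ. It was 2.28-fold higher with TGZ than with vehicle (1.37 to 3.80) and 2.25-fold with BSO plus TGZ (1.36 to 3.71), wide intervals for a dim probe.

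The fractalkine receptor moved the other way. Cx3cr1, which marks patrolling monocytes and some tissue macrophages, had 52.8 with BSO plus TGZ, 226 with RGZ, 260 with BSO plus RGZ and 309 with vehicle, and was not well above background with TGZ. It was at least 26.0-fold lower than vehicle with TGZ and 5.85-fold lower with BSO plus TGZ (4.36 to 7.86), and 1.37-fold (1.04 to 1.81) and 1.19-fold (0.900 to 1.57) lower with RGZ and with BSO plus RGZ. A second probe of Cx3cr1 was well above background only in the RGZ, BSO plus RGZ and vehicle pools, at 50.4, 57.4 and 64.9. It was therefore lower than vehicle by at least 5.46-fold with TGZ and at least 6.06-fold with BSO plus TGZ. Cx3cl1, the ligand, differed little with TGZ: its scaled signals were 32.7, 33.2, 22.5, 15.6 and 31.2 for TGZ, BSO plus TGZ, RGZ, BSO plus RGZ and vehicle, and only BSO plus RGZ was 2.0-fold lower (1.30 to 3.1).

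Marker genes of the cells that carry these receptors differed between lists. Of 9 monocyte markers, 4 were at least 2-fold higher than vehicle with TGZ and 4 with BSO plus TGZ, namely Ccr2 itself, Chil3, F13a1 and Plac8, and none was lower. With RGZ 1 was higher and 1 lower, and with BSO plus RGZ 2 were higher and 1 lower, the lower gene being Ly6c2, a marker of inflammatory monocytes. Over all genes with a value, the shares higher than vehicle were 10.1%, 8.31%, 1.65% and 3.05% for TGZ, BSO plus TGZ, RGZ and BSO plus RGZ. All 12 Kupffer cell and macrophage markers were well above background on every array, and 1 of 12 was at least 2-fold higher and none lower in each of the 4 comparisons with vehicle. The higher gene was Cd68 in both TGZ pools and Marco in both RGZ pools. The median log2 difference of the 12 markers was -0.34 with TGZ, 0.18 with BSO plus TGZ, 0.01 with RGZ and -0.07 with BSO plus RGZ. Clec4f, which is specific to Kupffer cells, had 2124 with TGZ and 2344 with vehicle. The part of these cells in the Ccr2 and Cx3cr1 values was not tested.

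Cx3cr1 and Ccr8 are neighbours that differed in opposite directions. In mm9 their probes are 46.1 kb apart on chromosome 9, Cx3cr1 at chr9:119957811-119957870 on the minus strand and Ccr8 at chr9:120003941-120004000 on the plus strand. Ccr8, a receptor for Ccl1 known from regulatory and Th2 lymphocytes, had a scaled signal of 1815 with TGZ, 1284 with BSO plus TGZ, 336 with RGZ, 562 with BSO plus RGZ and 18.9 with vehicle. All 4 treated pools were above vehicle, by 95.9-fold (67.6 to 136), 67.8-fold (47.9 to 96.2), 17.8-fold (12.5 to 25.2) and 29.7-fold (20.9 to 42.1) in the same order. No other gene of the family was measured past 10-fold above vehicle in an RGZ pool. Ccl1, its ligand, was close to background and similar in all groups, between 19.6 and 25.7. Of 9 T cell markers with a value, Foxp3, the regulatory T cell factor, was at least 2-fold higher than vehicle and Icos lower with TGZ. Cd28 was higher with BSO plus TGZ, and none passed 2-fold with RGZ or BSO plus RGZ. Over all genes with a value, 10.1% were higher and 9.48% lower with TGZ, and 8.31% and 5.89% with BSO plus TGZ. With RGZ 1.65% were higher and 1.66% lower, and with BSO plus RGZ 3.05% and 3.78%, so the T cell counts are near these shares. The summed scaled signal of the T cell markers was 8470 with TGZ, 7665 with BSO plus TGZ, 5208 with RGZ, 4589 with BSO plus RGZ and 8374 with vehicle. Cd4 made up 75.4% to 82.5% of it. The part of T cells in the Ccr8 values was not tested.

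A second cluster of receptor genes on chromosome 9 also held genes that differed in opposite directions. The probes of Ccr1 and Ccr3 are 67.4 kb apart there. Ccr3, the receptor of eotaxins on eosinophils, had 30.4 with BSO plus TGZ, 112 with RGZ, 118 with BSO plus RGZ and 112 with vehicle, and was not well above background with TGZ. It was at least 9.44-fold lower than vehicle with TGZ and 3.69-fold lower with BSO plus TGZ (2.67 to 5.08), and within 1.05-fold of vehicle in both RGZ pools. Ccr2, 77.7 kb from Ccr3, was higher with TGZ, and Ccr1 was not measured. Of the eosinophil and mast cell markers, Prg2, Epx, Siglecf and Cpa3 were well above background on no array, vehicle included. Ear1, an eosinophil-associated ribonuclease gene, had 34.8 with BSO plus TGZ, 92.2 with RGZ, 101 with BSO plus RGZ and 32.6 with vehicle, and was not well above background with TGZ. The other detected genes of this list did not share that pattern: Kit had a log2 difference from vehicle of 0.57 with TGZ, Mcpt4, a mast cell protease gene, a bound of 0.87 with TGZ, and Fcer1a a bound of 1.10 with BSO plus TGZ. The list's median with TGZ was 0.57 over 3 values, and its part in the Ccr3 values was not tested. Ccl11 and Ccl24 encode eotaxins. Ccl11 was above background only with BSO plus TGZ, at 11.3, and Ccl24 stayed between 426 and 541 in all groups.

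**Figure D2:**
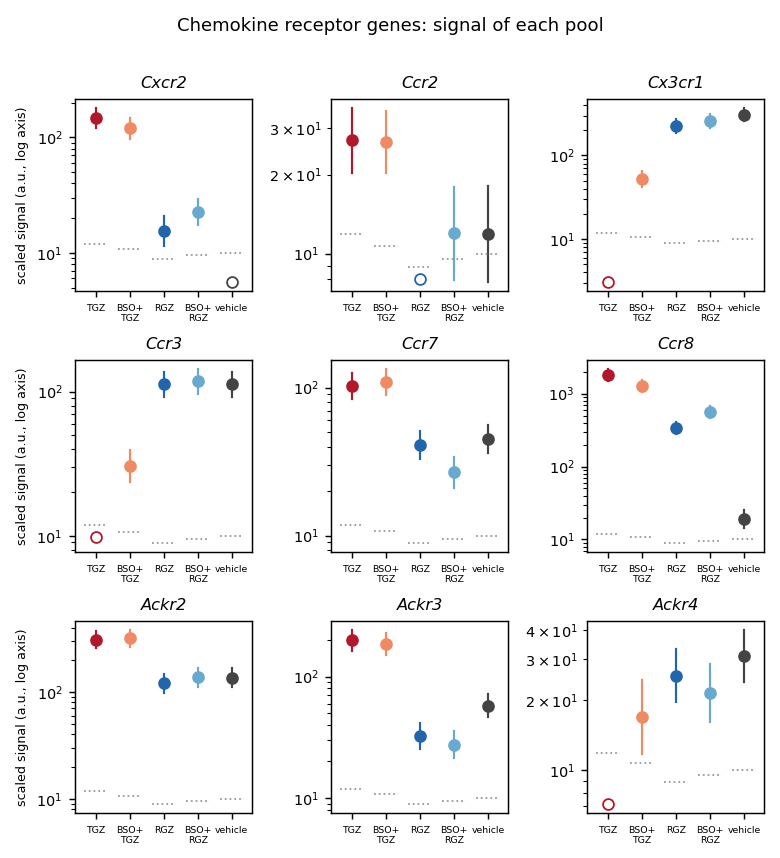
Scaled signal in arbitrary units on a log axis, 1 point per pool, for the receptor genes at least 2-fold from vehicle in any treated group, with bars, open points and dotted lines as for the ligands. Cx3cr1 and Ccr3 are not well above background with TGZ, whereas Ccr8 is at 1815 with TGZ and 18.9 with vehicle.

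The inflammatory CC ligands showed 2 patterns. Ccl6, a mouse chemokine made by myeloid cells, had 2794 with TGZ, 3171 with BSO plus TGZ, 1368 with RGZ, 1682 with BSO plus RGZ and 773 with vehicle. All treated pools exceeded vehicle, by 3.61-fold (2.74 to 4.77) with TGZ, 4.10-fold (3.11 to 5.41) with BSO plus TGZ, 1.77-fold (1.34 to 2.33) with RGZ and 2.18-fold (1.65 to 2.87) with BSO plus RGZ. Its neighbour Ccl9 was below vehicle in all treated pools, with 3864, 3746, 3581 and 2122 in the same order against 5001 with vehicle, and passed 2-fold only with BSO plus RGZ, at 2.36-fold lower (1.79 to 3.11). Ccl5, which draws T cells, lay between 244 and 412. Ccl4 lay between 15.4 and 25.8, with 1.68-fold more with TGZ than with vehicle (1.07 to 2.65) and 1.65-fold more with RGZ (1.07 to 2.54), and Ccl3 was above background only with RGZ, at 11. For Ccl4 a second probe put both of these differences past 2-fold, at least 2.14-fold higher with TGZ and at least 2.49-fold with RGZ.

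Lymphoid chemokines and their receptor differed between TGZ and RGZ. Ccr7, the receptor that guides dendritic cells and T cells to lymph nodes, had 102 with TGZ, 110 with BSO plus TGZ, 40.8 with RGZ, 26.7 with BSO plus RGZ and 45.0 with vehicle. It was 2.27-fold above vehicle with TGZ (1.69 to 3.06) and 2.43-fold with BSO plus TGZ (1.81 to 3.27), but 1.68-fold below with BSO plus RGZ (1.21 to 2.34). Ccl19, a ligand of Ccr7, gave 49.5, 42.2, 22.6, 17.6 and 20.7 for TGZ, BSO plus TGZ, RGZ, BSO plus RGZ and vehicle, which made it 2.40-fold higher than vehicle with TGZ (1.66 to 3.45) and 2.04-fold with BSO plus TGZ (1.42 to 2.95). Ccl21a, the other ligand of Ccr7, was instead low with RGZ: it had 60.9 with TGZ, 85.6 with BSO plus TGZ, 25.9 with RGZ, 31.6 with BSO plus RGZ and 67.6 with vehicle. Ccl21a was 2.61-fold lower than vehicle with RGZ (1.90 to 3.59) and 2.14-fold lower with BSO plus RGZ (1.56 to 2.92), and within 1.27-fold of vehicle in both TGZ pools. These calls were not firm: the log2 difference of Ccl21a was -0.71 with RGZ when background was corrected by limma's normexp method. That method adds an offset of 50, which compresses differences of dim probes by construction, and the RGZ call was lost only there. With BSO plus RGZ it was -0.99 with arrays scaled by their median, -0.97 with arrays scaled by spike-in RNA and -0.51 with normexp. Near-identical copies of Ccl21a and Ccl19 exist in the mouse genome, and their RNA may be read by the same probes.

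The remaining lymphoid and mucosal genes varied less. Ccl25, the ligand of Ccr9, lay between 309 and 360 in all 5 pools. Ccl27a, a skin chemokine, was 1.81-fold lower than vehicle with TGZ (1.35 to 2.42), 1.66-fold with BSO plus TGZ (1.25 to 2.22), 1.27-fold with RGZ (0.956 to 1.69) and 1.53-fold with BSO plus RGZ (1.15 to 2.04). Ccl17 was above background only with BSO plus TGZ, at 13.7, and Ccr6 only with RGZ, at 10.3.

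Homeostatic CXC chemokines differed between the compounds as well. Cxcl12, which holds stem cells and lymphocytes in tissues through Cxcr4, had 5276 with TGZ, 7154 with BSO plus TGZ, 15290 with RGZ, 12300 with BSO plus RGZ and 15490 with vehicle. Both TGZ pools were below the other 3, by 2.94-fold against vehicle with TGZ (2.23 to 3.87) and 2.17-fold with BSO plus TGZ (1.64 to 2.86). A second Cxcl12 probe was ordered the same way, with 368 and 679 in the TGZ and BSO plus TGZ pools, 1785 and 1554 in the RGZ and BSO plus RGZ pools and 1895 with vehicle. Cxcr4 was above background only with BSO plus RGZ, at 14.3. Markers of sinusoidal endothelium, a source of Cxcl12 in liver, moved in part with Cxcl12: of 10, all well above background on every array, 5 were at least 2-fold lower and 2 higher than vehicle with TGZ, 2 lower and 2 higher with BSO plus TGZ, and 1 higher with RGZ and with BSO plus RGZ. Over all genes with a value, 9.48% were lower and 10.1% higher with TGZ, and 5.89% and 8.31% with BSO plus TGZ. The summed scaled signal of these 10 markers was 8687, 11670, 12820, 12050 and 13870 for TGZ, BSO plus TGZ, RGZ, BSO plus RGZ and vehicle, and their part in the Cxcl12 values was not tested.

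Cxcl13, the attractant of B cells, was high in the RGZ pools. Its scaled signal was 29.6 with BSO plus TGZ, 174 with RGZ, 244 with BSO plus RGZ and 26.0 with vehicle, and it was not well above background with TGZ. It was 6.67-fold higher than vehicle with RGZ (4.76 to 9.35) and 9.39-fold with BSO plus RGZ (6.71 to 13.2), 1.14-fold higher with BSO plus TGZ (0.778 to 1.66), and at least 2.19-fold lower with TGZ. Cxcr5, its receptor, was measured on no array. Of 5 B cell markers with a value none was at least 2-fold higher than vehicle with RGZ or BSO plus RGZ, where 1.65% and 3.05% of all genes were. Marco, a macrophage scavenger receptor gene in the Kupffer cell list, also had its highest values in the RGZ pools: 405 with TGZ, 761 with BSO plus TGZ, 1339 with RGZ, 1403 with BSO plus RGZ and 390 with vehicle. The other 11 genes of that list stayed within 2-fold of vehicle in both RGZ pools, and the list's medians there were 0.01 and -0.07 on the log2 scale.

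Cxcl14, Cxcl16 and Cxcr6 were less certain. Cxcl14 had 68.9 with TGZ, 54.7 with BSO plus TGZ, 24.9 with RGZ and 38.9 with BSO plus RGZ, and was not well above background with vehicle, which put it at least 6.57-fold, 5.22-fold, 2.38-fold and 3.71-fold above vehicle in this order. Its other probe did not show this: it was well above background only with vehicle, at 13.2. The probes of Cxcl14 therefore disagree, and its direction is not settled. Cxcl16, which retains NKT cells in liver sinusoids through Cxcr6, had 64.8 with TGZ, 94.6 with BSO plus TGZ, 141 with RGZ, 120 with BSO plus RGZ and 121 with vehicle, 1.87-fold lower with TGZ than with vehicle (1.39 to 2.50). A second Cxcl16 probe was just past 2-fold, 2.015-fold lower than vehicle with TGZ, and 1.023-fold lower with BSO plus TGZ. Cxcr6 had 35.1, 47.9, 63.7, 49.6 and 65.9 for TGZ, BSO plus TGZ, RGZ, BSO plus RGZ and vehicle, 1.88-fold lower with TGZ (1.34 to 2.62). A second Cxcr6 probe was past 2-fold, at least 2.89-fold lower than vehicle with TGZ and 2.97-fold lower with BSO plus TGZ.

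The interferon-inducible ligands stayed within 2-fold of vehicle in every treated pool. Cxcl9, which draws T cells through Cxcr3, had 124 with TGZ, 162 with BSO plus TGZ, 184 with RGZ, 136 with BSO plus RGZ and 104 with vehicle. Cxcl10 had 146, 133, 224, 109 and 164 in the same order of groups. Cxcr3 was dim, with 14.2, 19.5, 15.8 and 21.5 in the BSO plus TGZ, RGZ, BSO plus RGZ and vehicle pools, and was not well above background with TGZ. The brightest Cxcl11 probe shares runs of up to 31 bases with probes of unrelated genes, among them Elk1, Med16 and Glrx2, so its signal cannot be assigned to Cxcl11; a dimmer probe of the gene lay between 2002 and 2312.

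The 4 atypical receptors did not move as a block. Ackr3, which removes Cxcl12, had 199 with TGZ, 185 with BSO plus TGZ, 32.6 with RGZ, 27.5 with BSO plus RGZ and 57.6 with vehicle. It was 3.45-fold above vehicle with TGZ (2.58 to 4.62) and 3.22-fold with BSO plus TGZ (2.40 to 4.31), but 1.77-fold below with RGZ (1.28 to 2.43) and 2.10-fold below with BSO plus RGZ (1.5 to 2.93). Ackr2, a scavenger of inflammatory CC chemokines, had 308, 316, 120, 137 and 136 for TGZ, BSO plus TGZ, RGZ, BSO plus RGZ and vehicle, 2.27-fold above vehicle with TGZ (1.71 to 3.0) and 2.33-fold with BSO plus TGZ (1.76 to 3.08). Ackr1, which binds chemokines of both classes on endothelium and red cells, was 1.73-fold above vehicle with TGZ (1.31 to 2.28) and 1.5-fold with BSO plus TGZ (1.13 to 1.98). Ackr4, a scavenger of Ccl19, Ccl21 and Ccl25, was the exception in direction: it had 16.9 with BSO plus TGZ, 25.5 with RGZ, 21.4 with BSO plus RGZ and 31.0 with vehicle, and was not well above background with TGZ, at least 2.61-fold lower than vehicle.

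Counts over the family were set beside those over all genes. A gene enters a count if it was well above background on at least 1 of the arrays compared, a filter that selects genes high in either group and that was applied to all genes alike. With TGZ, 12 of 34 genes (35.3%) were at least 2-fold higher than vehicle, where 10.1% of all genes with a value were, and 5 (14.7%) were lower, where 9.48% were. With BSO plus TGZ, 12 of 38 (31.6%) were higher, against 8.31% of all genes, and 3 (7.9%) were lower, against 5.89%. With RGZ, 4 of 35 (11.4%) were higher, against 1.65% of all genes, and 1 was lower, against 1.66%. With BSO plus RGZ, 5 of 35 (14.3%) were higher, against 3.05% of all genes, and 4 (11.4%) were lower, against 3.78%. The 12 higher genes were the same in both TGZ pools: Cxcl1, Cxcl2, Cxcl14, Ccl2, Ccl6, Ccl19, Cxcr2, Ccr2, Ccr7, Ccr8, Ackr2 and Ackr3, of which Cxcl14 rests on probes that disagree. Both counts use the same vehicle array, as do all 4 comparisons. Among receptors 6 of 13 were higher and 3 lower with TGZ, and among ligands 6 of 21 were higher and 2 lower.

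The split between higher and lower depended on the scale. Scaled by the Agilent spike-in RNA in place of the 75th percentile, all genes with a value shifted by a median of -0.44 on the log2 scale with TGZ, and the chemokine and receptor genes split into 8 higher and 9 lower than vehicle, against 12 and 5. Over all genes with a value the split was then 1201 higher and 4287 lower of 21317. The family's median log2 difference from vehicle with TGZ was 0.26, where that of all genes was 0.01, and became -0.20 with spike-in scaling, so its sign depends on the scale while it stays above the median of all genes. With BSO plus RGZ the split was 5 higher and 1 lower both by spike-in scaling and by scaling on the array median, against 5 and 4. Over all genes it was 907 higher and 576 lower with spike-in scaling and 844 and 621 on the array median, against 646 and 801. Among 82 called differences of the 20 named genes, 0 changed direction under any alternative. Rescaling could hardly turn a difference past 2-fold, since spike-in scaling moved the TGZ array by -0.46 on the log2 scale against vehicle. With TGZ, Cxcl1, Ccr8, Cxcr2, Ccl6 and Ackr3 stayed at least 2-fold higher than vehicle, and Cx3cr1, Ccr3 and Cxcl12 at least 2-fold lower, under every alternative that gave them a value. Among the alternatives, the authors' deposited values repeat the main scaling and other filters on dim probes reuse the same signals, so these could hardly change a call. With TGZ, the higher calls of Ccl2, Ccl19, Ccr2, Ccr7, Ackr2, Cxcl2 and Cxcl14 and the lower calls of Ackr4 and Cxcl13 came under 2-fold in at least 1 alternative. With BSO plus TGZ the same 7 higher calls and the lower call of Ccr3 did so, with RGZ those of Cxcl14 and Ccl21a, and with BSO plus RGZ those of Cxcl14, Cxcr2, Ackr3, Ccl21a and Cx3cl1. With TGZ, the calls of Ccl2, Cxcl2, Cxcl14 and Cxcl13 were lost only with normexp. Its offset of 50 compresses differences of dim probes by construction.

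**Figure D3:**
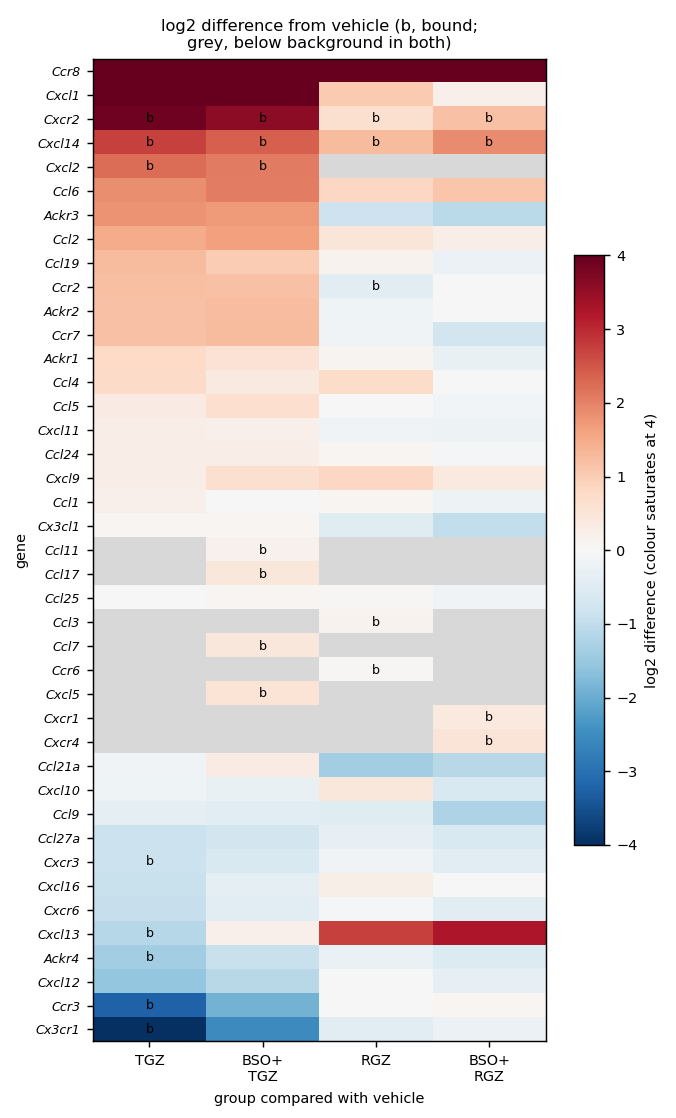
Difference of scaled log2 signal from vehicle for 41 of the 42 detected genes, 1 column per treated group, sorted by the value with TGZ. Red is higher and blue lower than vehicle, b marks a lower bound on the size, and grey marks genes not well above background in either pool. Cxcl13 is at -1.13, a bound, with TGZ and at 2.74 with RGZ.

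TGZ and RGZ were given at the same dose and time, which allows 2 comparisons of the compounds that share no array: TGZ against RGZ, and BSO plus TGZ against BSO plus RGZ. Without BSO, 13 of 36 genes (36.1%) were at least 2-fold higher with TGZ than with RGZ and 6 (16.7%) were lower, where 9.22% and 8.41% of all genes were. With BSO in both groups, 12 of 40 were higher and 3 (7.5%) lower with TGZ, where 8.31% and 5.26% of all genes were. Of the 34 genes with a value in both comparisons, 11 (32.4%) were higher with TGZ in each and 3 (8.8%) lower in each, where 6.15% and 4.15% of all genes were. None was called in opposite directions, and 6 were past 2-fold in only 1 comparison, namely Ackr4, Ccl6, Cx3cl1, Cxcl12, Cxcl14 and Cxcl16. The second Cxcl12 probe was past 2-fold in both, lower with TGZ by 4.85-fold without BSO and 2.29-fold with BSO. Over the 26 genes measured in all 4 pools, the 2 differences had a Pearson r of 0.92 and a Spearman rho of 0.91 across genes, which is a description, since genes of a pool share its RNA and its array. With spike-in scaling the split was 6 higher and 12 lower without BSO, against 13 and 6, and 7 higher and 4 lower with BSO, against 12 and 3. Over all genes the spike-in split was 965 higher and 4633 lower of 21511 without BSO, and 1067 higher and 2410 lower of 21362 with BSO. Of the 11 genes higher in each comparison, 4 stayed past 2-fold in both with spike-in scaling, Cxcl1, Cxcl2, Cxcr2 and Ackr3, and 4 with normexp background correction, Cxcl1, Cxcr2, Ccr8 and Ackr3. Of the 3 lower genes, all stayed with spike-in scaling and 2 with normexp, Cx3cr1 and Cxcl13.

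The genes that were higher with TGZ than with RGZ in both comparisons spanned ligands, receptors and scavengers. Cxcl1 was 21.2-fold higher without BSO (16.1 to 28.0) and 30.6-fold with BSO (23.2 to 40.4). Cxcr2 was 9.51-fold higher (6.63 to 13.7) and 5.32-fold higher (3.83 to 7.38), and Ackr3 6.09-fold (4.47 to 8.30) and 6.75-fold (4.87 to 9.34), in the same order. Ccr8, although above vehicle with each compound, was 5.40-fold higher with TGZ than with RGZ (4.09 to 7.12) and 2.29-fold higher with BSO in both groups (1.73 to 3.02). Ccr7 differed by 2.51-fold (1.86 to 3.37) and 4.10-fold (2.98 to 5.64), and Cxcl2 by at least 5.30-fold and at least 4.42-fold. Ccl2, Ccl19, Ccl21a, Ccr2 and Ackr2 lay between 2.03-fold and 3.02-fold in each comparison, the Ccr2 value without BSO being a bound, and each of these 5 came under 2-fold in at least 1 alternative in each comparison. For Ccl21a this came from low values with RGZ rather than from high values with TGZ, by comparison with vehicle.

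Cx3cr1, Ccr3 and Cxcl13 were lower with TGZ in both comparisons. Against RGZ, Cxcl13 was lower with TGZ by at least 14.6-fold, and by 8.26-fold with BSO in both groups (5.94 to 11.5). Cx3cr1 was at least 19.0-fold and 4.92-fold lower (3.66 to 6.61), and Ccr3 at least 9.46-fold and 3.87-fold lower (2.81 to 5.33), in the same order. Other genes showed no 2-fold difference between the compounds in either comparison. Ccl24 had folds of 1.14 (0.865 to 1.51) and 1.27 (0.963 to 1.68) of TGZ over RGZ without and with BSO, and Ccl1 had 1.10 (0.753 to 1.60) and 1.13 (0.751 to 1.69). Cxcl9, Cxcl10 and Ccl25 were the genes whose sign differed between the comparisons, and each stayed within 1.54-fold.

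**Figure D4:**
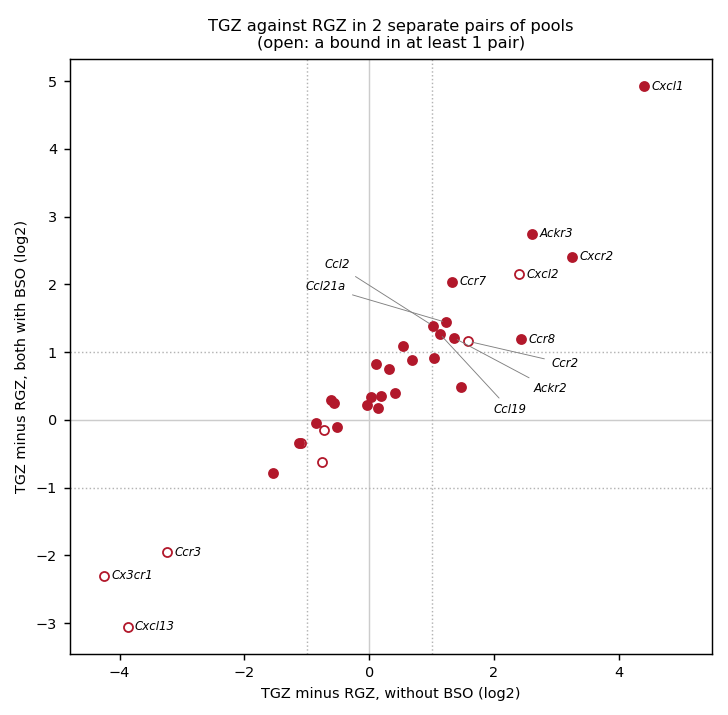
Difference of scaled log2 signal between TGZ and RGZ pools for the 34 genes with a value in both comparisons, without BSO on the horizontal axis and with BSO in both groups on the vertical axis. Positive values are higher with TGZ, dotted lines mark 2-fold, and open points are bounds in at least 1 comparison. The labelled genes, 11 in the upper right and 3 in the lower left, pass 2-fold in both.

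Few of these genes differed past 2-fold between BSO plus TGZ and TGZ alone. Of 37 genes with a value, 3 (8.1%) were at least 2-fold higher with BSO plus TGZ than with TGZ, where 1.56% of all genes were, and none was lower, where 0.494% were. The 3 were Cx3cr1, at least 4.45-fold higher, Ccr3, at least 2.56-fold, and Cxcl13, at least 2.49-fold, all of them genes not well above background with TGZ. Cx3cr1 with BSO plus TGZ was still 5.85-fold below vehicle. Cxcl1 was 1.25-fold lower with BSO plus TGZ than with TGZ (0.947 to 1.65) and Ccl2 1.11-fold higher (0.830 to 1.48). Between BSO plus RGZ and RGZ, none of 37 genes was at least 2-fold higher, where 0.513% of all genes were, and 1 (2.7%) was lower, where 0.715% were. That gene was Cxcl10, which was 2.06-fold lower with BSO plus RGZ than with RGZ (1.56 to 2.73). The calls of Cx3cr1, Ccr3, Cxcl13 and Cxcl10 in these comparisons did not hold under every alternative.

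Genes of the family whose names fall outside the rule were measured too. Of 7 such genes, 3 were at least 2-fold higher than vehicle in each TGZ pool and none in an RGZ pool. Among all genes with a value, 10.1% were higher with TGZ, 8.31% with BSO plus TGZ, 1.65% with RGZ and 3.05% with BSO plus RGZ. Ccrl2, an atypical receptor that binds chemerin, had 299 with TGZ, 305 with BSO plus TGZ, 53.2 with RGZ, 62.7 with BSO plus RGZ and 47.3 with vehicle. Pf4, a CXC chemokine of platelets, had 571, 688, 172, 195 and 172 in the same order of groups, and Ppbp, its neighbour in platelets, 64.7, 119, 38.6, 40.9 and 28.1. Of the platelet markers with a value, 3 of 3 were higher than vehicle with TGZ and 4 of 4 with BSO plus TGZ, Pf4 and Ppbp among them, and none with RGZ or BSO plus RGZ. The platelet part in the Pf4 and Ppbp values was not tested.

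The genes that act before and after chemokines were described from lists of textbook members. The list for the induction of chemokine transcription had 14 detected genes and also held feedback inhibitors of NF-kappaB, Nfkbia and Tnfaip3. At least 2-fold above vehicle with TGZ were 8 of the 14, namely Atf3, Jun, Cebpb, Il6, Nfkbiz, Rela and both of these inhibitors. With BSO plus TGZ 7 of them were, all but Rela, and with RGZ and BSO plus RGZ 2, Jun and Il6, and none was lower in any of these comparisons. The shares of all genes higher than vehicle were 10.1%, 8.31%, 1.65% and 3.05% for TGZ, BSO plus TGZ, RGZ and BSO plus RGZ. The genes farthest from vehicle with TGZ were Atf3, Jun, Cebpb and Il6, transcription factors and a cytokine. Atf3 had 1908 with TGZ, 1166 with BSO plus TGZ, 28.5 with RGZ, 27.1 with BSO plus RGZ and 15.6 with vehicle. Jun had log2 differences from vehicle of 3.53 with TGZ, 3.18 with BSO plus TGZ, 1.28 with RGZ and 1.90 with BSO plus RGZ, and Cebpb of 2.23, 1.82, 0.40 and 0.33. Il6 was not well above background with vehicle and at least 2.08 higher on the log2 scale with TGZ. The cytokine genes Tnf and Il1b, classical inducers of chemokines, stayed within 2-fold, with log2 differences of -0.09 and 0.62 with TGZ.

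Of 13 detected genes for leukocyte adhesion, 3 were at least 2-fold higher than vehicle with TGZ and none was lower, where 10.1% and 9.48% of all genes were. The 3 were Vcam1, Icam1 and Selplg, with log2 differences of 1.57, 1.33 and 1.09. Icam1, the endothelial ligand of neutrophil integrins, was also past 2-fold with RGZ and with BSO plus RGZ, at 1.21 and 1.40. Selp, the P-selectin gene, was at 0.95 with TGZ and -0.53 with RGZ. Of 27 genes for signalling behind chemokine receptors with a value, 4 were at least 2-fold higher with TGZ and 4 lower, with a median log2 difference of -0.02. These counts are near the shares over all genes, 10.1% higher and 9.48% lower. Rgs1, which ends G protein signalling in leukocytes, had 193 with TGZ, 214 with BSO plus TGZ, 18.2 with RGZ and 20.1 with vehicle. With BSO plus RGZ Rgs1 was not well above background and at least 2.11-fold lower than vehicle. Rgs2 had a log2 difference of 1.41 with TGZ. Ptk2b, a kinase activated downstream of chemokine receptors, was at -1.82 with TGZ and -1.32 with BSO plus TGZ.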

How the data were processed

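The study's authors extracted total RNA from livers, pooled RNA of 6 animals per group in equal amounts and labelled it with Cy3, per the labels' protocols. Per the file headers, the array files give intensity per spot after background subtraction in Agilent Feature Extraction 12.0.3.1, from 1 slide, with probe positions in mm9. In the authors' deposited value table the log2 value was within 0.01 of the log2 intensity plus a constant per array for 99.8% to 99.9% of probes, with column medians of 4.01 (TGZ), 4.07 (BSO plus TGZ), 4.00 (RGZ), 3.92 (BSO plus RGZ) and 4.02 (vehicle), so the table was scaled per array and no gene was centred.

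Over the 5 arrays, 420 spots flagged as outliers were left out and no spot was saturated. Spots of a probe were averaged and the array's 75th percentile of non-control probes was subtracted from the log2 signal. The brightest of a gene's probes stood for it. The genes, the lists of related genes and cell markers, and the rule for naming genes (every member at least 2-fold from vehicle in any group) were chosen with earlier results of these data known. The promoter of Cxcl2, and Tnf, Il1b, Selp and the single marker genes given with values, were chosen after their values were seen; from the other lists the up to 4 genes farthest from vehicle with TGZ were named. In probes well above background the median SE of a member's log2 signal was 0.153, and with 1 array per group this error is the only one measured. Alternatives were median and spike-in scaling, limma 3.58.1 normexp (offset 50), the deposited table, the mean over probes, 2 other filters and a 4-fold threshold. Python 3.11.15 and R 4.3.3 were used. A gene of the family is counted but not reported by name here.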

Additional observations from a re-analysis of the deposited data

Results flagged for a closer look

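For Cxcl13 the TGZ and RGZ pools lay on opposite sides of vehicle. The log2 difference from vehicle was -1.13 with TGZ, a bound because the probe was not well above background there, and 2.74 with RGZ, so that the TGZ difference minus the RGZ difference was -3.87. With normexp, which compresses differences of dim probes by construction, the TGZ value was -0.13, no longer past 2-fold. For Ackr3 the pools with BSO lay on opposite sides: 1.69 with BSO plus TGZ and -1.07 with BSO plus RGZ, which gives 2.75 between them. The BSO plus RGZ value came under 2-fold with median scaling (-0.97), spike-in scaling (-0.94) and normexp (-0.38). Both comparisons use the same vehicle array, and neither difference was tested, since each group is 1 pool on 1 array.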

How the results depend on the processing

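Counts of genes at least 2-fold apart against vehicle were 17 (TGZ), 15 (BSO plus TGZ), 5 (RGZ) and 9 (BSO plus RGZ). They were 19 for TGZ against RGZ, 15 for BSO plus TGZ against BSO plus RGZ, 3 for BSO plus TGZ against TGZ and 1 for BSO plus RGZ against RGZ. In this order they were 8, 7, 3, 4, 10, 7, 0 and 0 with normexp, whose offset of 50 compresses differences of dim probes by construction, and 7, 7, 2, 2, 8, 7, 1 and 0 at a 4-fold threshold. The counts over all genes fell as well. For TGZ against vehicle they were 2147 higher and 2020 lower of 21317, then 1097 and 906 with normexp, and 646 and 434 at a 4-fold threshold. Without a filter on dim probes, BSO plus TGZ and RGZ against vehicle had 26 and 13, BSO plus TGZ against BSO plus RGZ 25, BSO plus TGZ against TGZ 7 and BSO plus RGZ against RGZ 9. Over all genes, BSO plus TGZ against vehicle then had 3176 higher and 2398 lower of 36868, against 1781 and 1262 of 21430. With only genes above background on all 5 arrays, fewer genes were counted: TGZ, BSO plus TGZ and RGZ against vehicle had 9, 9 and 3, TGZ against RGZ 11, BSO plus TGZ against BSO plus RGZ 9 and BSO plus TGZ against TGZ 0. Over all genes, TGZ against vehicle then had 1673 higher and 1610 lower of 18483. BSO plus RGZ against RGZ had 0 with median scaling and with the mean over a gene's probes. By the software's weaker background call, 46 genes were above background with TGZ, 51 with BSO plus TGZ, 49 with RGZ, 42 with BSO plus RGZ and 46 with vehicle. The stricter call gave 28, 37, 34, 35 and 32 in the same order, so the order of the groups depends on the call.

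Of 82 called differences of 20 named genes, 39 stayed past 2-fold with normexp, 61 with spike-in scaling, 71 with the mean over probes, 77 with median scaling and 82 with the deposited table, and 0 reversed. A second probe gave a value in 88 comparisons of 12 probes: 0 passed 2-fold the other way and 15 fell on the other side of 2-fold, 4 of them of Cxcl14. No paired analysis was possible because each group is a single pool on a single array. Probes not well above background, with floors of 8.9 to 11.9 units by array, give only bounds.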
